A study of Mus musculus with 14 samples.

Results

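The Hox genes are the 39 genes of the mouse whose symbol is Hoxa, Hoxb, Hoxc or Hoxd followed by a number. All 39 were found by symbol among the 40481 genes of the bulk count table and among the 32285 genes of the nuclei libraries. They lie in 4 clusters, for which GRCm38 coordinates are given throughout. HoxA spans chr6:52155590-52260880 with 11 genes on the minus strand, HoxB chr11:96194316-96368256 with 10, HoxC chr15:102921103-103036852 with 9 and HoxD chr2:74668310-74765142 with 9, the last 3 clusters on the plus strand.

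Hox genes code for homeodomain transcription factors that give positions along the head-to-tail axis their identity. Genes at the same relative place in different clusters form paralogue groups, numbered from 1 at the head end to 13 at the tail end, and groups with higher numbers are normally switched on later and further back in the body. In the gut the mesoderm that builds the muscle coat carries a nested Hox pattern, and the hindgut is known for genes of the posterior groups, such as Hoxd13 and Hoxa13.

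The material was the muscularis, which comprises the muscle layers of the gut together with enteric nerves, interstitial cells and the serosa, separated by hand from C57BL/6 mice and flash frozen. Bulk RNA-seq covered colon and jejunum of mice labelled WT mTmG, in which mTmG names a fluorescent Cre reporter allele, and of mice labelled Carmn iKO, with 3 libraries in each of 4 groups. Carmn is a long noncoding RNA of smooth muscle. In addition, 1 library of colon nuclei per genotype measured RNA and open chromatin together on a 10x platform. How and in which cells Carmn was deleted, whether the iKO mice carry mTmG, which agent was given, and the age of the mice were not given in the sources used here. WT libraries carry the tags t1, t6 and t7 in both tissues, KO colon m1, t4 and t6, and KO jejunum m1, t1 and t4. Values below are listed in that order. Nothing in the labels says whether each library is a separate animal, so p-values measure the spread between these libraries.

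Bulk library totals ran from 24254905 to 44315104 counts. Levels are counts per 1000000 counts (CPM) after TMM scaling. Carmn itself stood at a mean of 258 CPM in WT colon, 494 in KO colon, 257 in WT jejunum and 907 in KO jejunum, so the count went against the KO label. The deleted part of Carmn was not given, so the count does not check the labels, and the groups are called KO-labelled here. The KO-labelled jejunum library m1 stood apart: 58.6% of the 20886 genes tested, and 26 of the 32 Hox genes tested, lay outside the range of the other 5 jejunum libraries, against 23.5% to 36.5% of genes and 3 to 15 Hox genes for each of those 5. Its summed smooth muscle markers (11 of 11 found) reached 93508 CPM against 47919 to 52796, with 6 above those libraries and 1 below. Its fibroblast markers (9 of 9) reached 6549 against 2757 to 3523, and its interstitial cell of Cajal markers (6 of 6) 372 against 617 to 801. Macrophage markers summed to 2390 CPM against 254 to 1309, and lymphatic endothelial markers to 317 against 81.9 to 229. Neuron markers summed to 1152 against 665 to 959, though 7 of 12 lay below, and glia markers to 365 against 235 to 318. Mural markers summed to 2176 against 3157 to 5498, and adipocyte markers to 109 against 204 to 758. The other marker sums lay within the range of those 5. Of the 26 Hox genes of m1 outside the range, 14 lay above and 12 below, and the part of the marker levels in this was not tested. The KO-labelled colon libraries t4 and t6 were next, with 45.7% and 43.8% of genes outside the other colon libraries. Results that rest on m1 are given with and without it.

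In WT muscularis, colon and jejunum differed by paralogue group. Members of groups 9 to 13 in the HoxA and HoxD clusters were high in colon and at or near 0 in jejunum, whereas members of HoxC groups 4 to 6 and Hoxb8 were lower in colon. Of the 39 Hox genes 32 passed the filter on low counts and were tested (edgeR quasi-likelihood test, Benjamini-Hochberg adjusted p under 0.05), and 12 differed between the tissues, 8 higher and 4 lower in colon. The same call was made for 1.56% of all genes tested, 0.694% higher and 0.862% lower. The 8 higher ones were Hoxa9, Hoxd9, Hoxa10, Hoxd10, Hoxd11, Hoxd12, Hoxa13 and Hoxd13. The 4 lower ones were Hoxc4, Hoxc5, Hoxc6 and Hoxb8. The median log2 fold change was -0.21 over the 32 Hox genes and 0.04 over all genes. In bulk tissue, fewer cells of a type and less RNA per cell cannot be told apart.

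**Figure D1:**
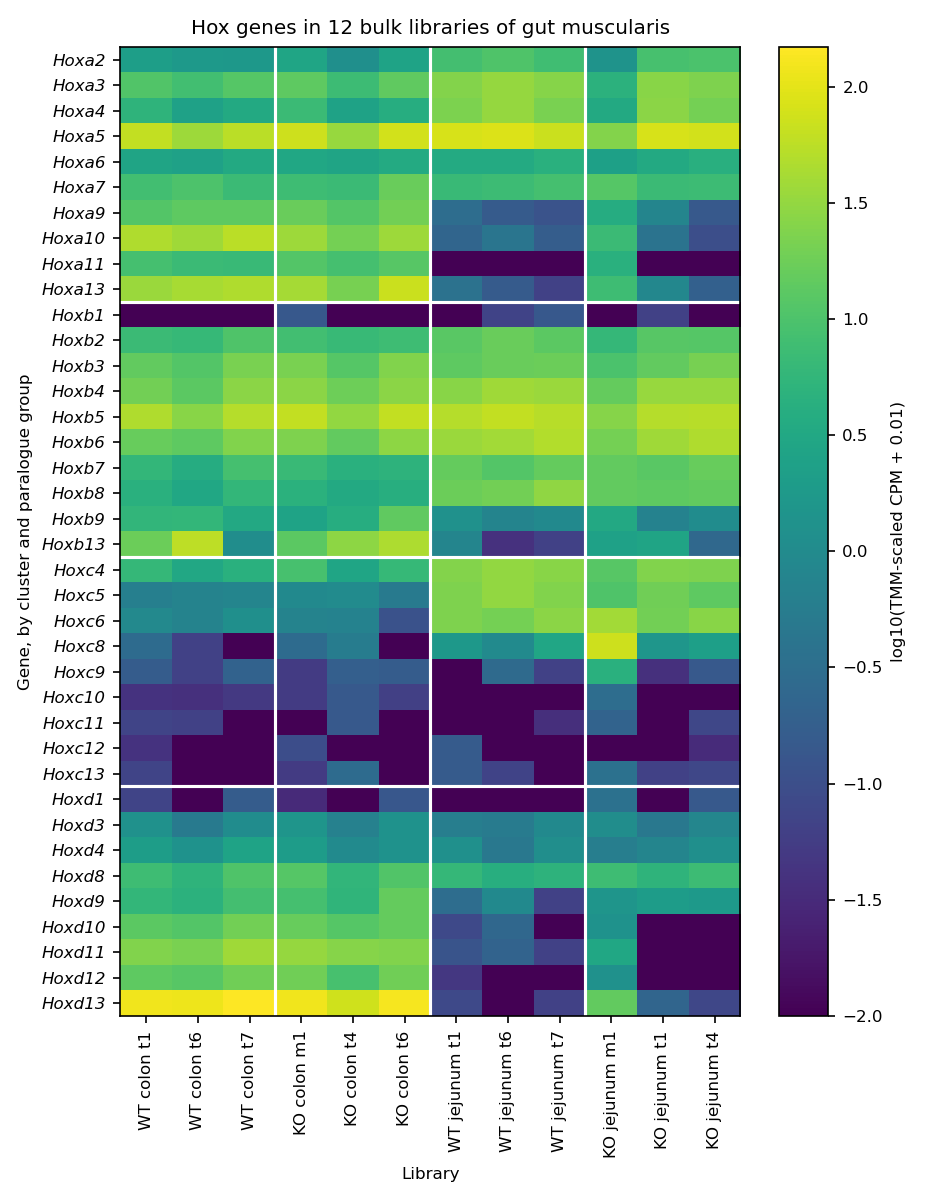
Heat map of TMM-scaled CPM on a log10 scale (0.01 added) for 38 Hox genes, in rows ordered by cluster and paralogue group, in the 12 bulk libraries in columns. Groups 9 to 13 of HoxA and HoxD fill the colon columns and are nearly empty in the jejunum columns apart from the KO-labelled library m1.

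The summed level over all 39 Hox genes was of the same order in both tissues. It came to 524, 483 and 610 CPM in WT colon and to 406, 471 and 441 CPM in WT jejunum. What differed was the make-up of the sum: groups 9 to 13 supplied 57.4%, 68.7% and 58.7% of it in WT colon and 0.944%, 0.674% and 0.356% in WT jejunum. In KO-labelled colon the posterior share was 52.7%, 58.4% and 57.1%, and in KO-labelled jejunum 15.7% in m1, 1.88% in t1 and 0.931% in t4.

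Promoter sequence was at hand for 22 of the 39 members, as 24 RefSeq windows (GRCm38.p6) from 250 bases before to 50 after an annotated start. A called higher, a called lower and an uncalled member are shown, since they differ in base composition. They are Hoxd13 (chr2:74667975-74668274), Hoxb8 (chr11:96281655-96281954) and Hoxb4 (chr11:96318017-96318316), all on the plus strand, 5′ to 3′, with matches to the searched motifs in capitals.
Hoxd13: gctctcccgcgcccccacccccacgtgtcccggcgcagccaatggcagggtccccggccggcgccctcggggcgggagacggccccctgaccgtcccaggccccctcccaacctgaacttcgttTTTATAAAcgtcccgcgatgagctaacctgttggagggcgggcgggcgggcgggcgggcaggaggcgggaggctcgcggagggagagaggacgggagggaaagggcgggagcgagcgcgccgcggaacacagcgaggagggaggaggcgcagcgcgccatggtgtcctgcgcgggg
Hoxb8: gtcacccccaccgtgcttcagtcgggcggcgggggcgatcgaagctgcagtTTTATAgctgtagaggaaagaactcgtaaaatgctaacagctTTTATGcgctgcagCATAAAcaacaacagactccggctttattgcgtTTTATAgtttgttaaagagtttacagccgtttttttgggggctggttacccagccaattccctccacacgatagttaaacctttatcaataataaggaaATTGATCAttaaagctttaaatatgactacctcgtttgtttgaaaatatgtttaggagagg
Hoxb4: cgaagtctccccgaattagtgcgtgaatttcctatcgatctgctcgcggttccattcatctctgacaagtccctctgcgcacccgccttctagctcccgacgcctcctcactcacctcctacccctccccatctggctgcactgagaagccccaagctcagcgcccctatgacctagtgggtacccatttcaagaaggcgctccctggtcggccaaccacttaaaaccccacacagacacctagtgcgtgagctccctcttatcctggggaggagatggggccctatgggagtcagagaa

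Motifs were searched on both strands: TGATNNAT, of the type bound by Pbx with Hox, TTTATG, of the type bound by Cdx and posterior Hox proteins, and TATAAA, of the TATA box type. TGATNNAT occurred in 4 of the 24 Hox windows (16.7%) against 8.85% of all 32851 windows, TTTATG in 5 (20.8%) against 11.9%, and TATAAA in 4 (16.7%) against 13.6%. A match is a description of the letters and not of binding. The Hoxd13 window held 37 CpG at 74.3% GC and overlapping TATAAA matches on both strands. The Hoxb8 window held 13 CpG at 42.3% GC, with 1 TGATNNAT, 2 TTTATG and 2 TATAAA matches, and the Hoxb4 window 14 CpG at 58% GC with none. The median was 14.5 CpG over the Hox windows and 7 over all windows.

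The anterior groups 1 to 4, whose genes pattern hindbrain, neck and foregut levels, held 12 members, of which Hoxb1 and Hoxd1 were not tested. In these groups Hoxc4 was the member that passed between WT tissues. Hoxb2, a hindbrain gene, stood at 7.01, 6.15 and 10.4 CPM in WT colon, 8.22, 6.41 and 7.62 in KO-labelled colon, 12.6, 16.8 and 13 in WT jejunum, and 5.94, 12.1 and 11.7 in KO-labelled jejunum. Every WT colon library lay below every WT jejunum library, but the difference did not pass (log2 fold change -0.85, adjusted p = 0.219).

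Hoxa3, a gene of pharyngeal and neck patterning, stood at 10.8, 8.05 and 11.7 CPM in WT colon, 13.7, 7.28 and 14.3 in KO-labelled colon, 25.3, 32.7 and 25.8 in WT jejunum, and 4.82, 27.3 and 23.0 in KO-labelled jejunum. The WT groups were apart, with a log2 difference of -1.46 that did not pass (adjusted p = 0.209), and m1 lay below all other jejunum libraries. Hoxb4, known for its part in blood stem cells, stood at 19.4, 13.3 and 27.9 CPM in WT colon, 28.2, 18 and 28.0 in KO-labelled colon, 27.4, 38.2 and 35.0 in WT jejunum, and 15.2, 33.5 and 33.7 in KO-labelled jejunum. Its WT groups overlapped (-0.73, adjusted p = 0.390). Hoxa4 and Hoxa2 lay lower in WT colon by larger amounts that also missed the threshold, at -2.78 (adjusted p = 0.0694) and -2.21 (adjusted p = 0.10). Hoxb3 was the closest to equal of all members, at -0.01 (adjusted p = 0.999).

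The central groups 5 to 8, known for thoracic and midgut levels, held 11 members, all tested. Hoxa5, required for lung and foregut development, stood at 61.2, 35.9 and 55.1 CPM in WT colon, 70.2, 33.6 and 78.1 in KO-labelled colon, 81.7, 89.7 and 67.6 in WT jejunum, and 25.4, 81.9 and 75.9 in KO-labelled jejunum. The WT tissues did not overlap, yet the log2 difference of -0.65 did not pass (adjusted p = 0.576). Hoxb6 stood at 15.9, 13.5 and 23.7 CPM in WT colon, 23.3, 14.6 and 28.5 in KO-labelled colon, 35.0, 39.2 and 48.8 in WT jejunum, and 19.7, 37.2 and 46.6 in KO-labelled jejunum. This difference of -1.21 did not pass either (adjusted p = 0.122). Hoxb7 stood at 5.77, 3.79 and 8.62 CPM in WT colon, 6.68, 4.44 and 4.99 in KO-labelled colon, 15.2, 11.2 and 15.1 in WT jejunum, and 14.8, 12.6 and 16.1 in KO-labelled jejunum. Here all 6 jejunum libraries lay above all 6 colon libraries, m1 included, and the KO-labelled difference of -1.43 (SE 0.30) passed at adjusted p = 0.0443. The WT difference was -1.19 (adjusted p = 0.0804). The KO-labelled call was lost in 14 alternatives and kept in 6, the WT difference gained the call in 3, and the difference between genotypes did not pass.

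Hoxb8, a gene of the thoracic axis also used by microglial precursors, was lower in colon in both genotypes. It stood at 4.48, 3.08 and 5.81 CPM in WT colon, 4.60, 3.40 and 4.18 in KO-labelled colon, 16.9, 19.2 and 30.5 in WT jejunum, and 14.5, 13.9 and 14.9 in KO-labelled jejunum. All 6 colon libraries lay below all 6 jejunum libraries. The log2 difference was -2.32 (SE 0.29, adjusted p = 0.00444) in WT and -1.83 (SE 0.29, adjusted p = 0.0177) in KO-labelled tissue.

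The largest deficits in WT colon were those of Hoxc5 and Hoxc6, HoxC genes known for lower cervical and thoracic levels. Hoxc5 stood at 0.618, 0.714 and 0.780 CPM in WT colon, 0.955, 1.01 and 0.506 in KO-labelled colon, 23.3, 31.5 and 23.9 in WT jejunum, and 10.6, 18.4 and 13.9 in KO-labelled jejunum. Hoxc6 stood at 0.896, 0.714 and 1.17 CPM in WT colon, 0.738, 0.693 and 0.101 in KO-labelled colon, 23.5, 19.9 and 28.2 in WT jejunum, and 39.0, 19.2 and 26.9 in KO-labelled jejunum. Both genes separated the tissues without overlap in all 12 libraries. The log2 differences were -5.21 (SE 0.34, adjusted p = 0.000109) and -4.69 (SE 0.55, 0.00364) in WT, and -4.12 (SE 0.32, 0.0002) and -5.79 (SE 0.58, 0.00166) in KO-labelled tissue. Hoxc4 stood at 6.08, 3.19 and 4.37 CPM in WT colon and at 25, 31 and 26.4 in WT jejunum, with a difference of -2.59 (SE 0.42, adjusted p = 0.0128). Summed mesothelial markers (7 of 8 found) moved the same way, at 374 to 869 CPM in WT colon and 1024 to 2133 in WT jejunum, and mesothelial-like nuclei held 54.1% of the Hoxc6 UMIs in colon; the part of this in the HoxC differences was not tested. Hoxc5 shares exon sequence on the same strand with Hoxc10, so their reads can be confused.

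Hoxc8 was far higher in a single library than in any other. It stood at 0.278, 0.0549 and 0 CPM in WT colon, 0.282, 0.555 and 0 in KO-labelled colon, 1.69, 0.990 and 2.90 in WT jejunum, and 70.3, 1.57 and 2.28 in KO-labelled jejunum. The value 70.3 belongs to m1, in which Hoxc6 was also above the other jejunum libraries. The tissue difference passed in neither genotype (adjusted p = 0.341 in WT and 0.0954 in KO-labelled tissue).

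**Figure D2:**
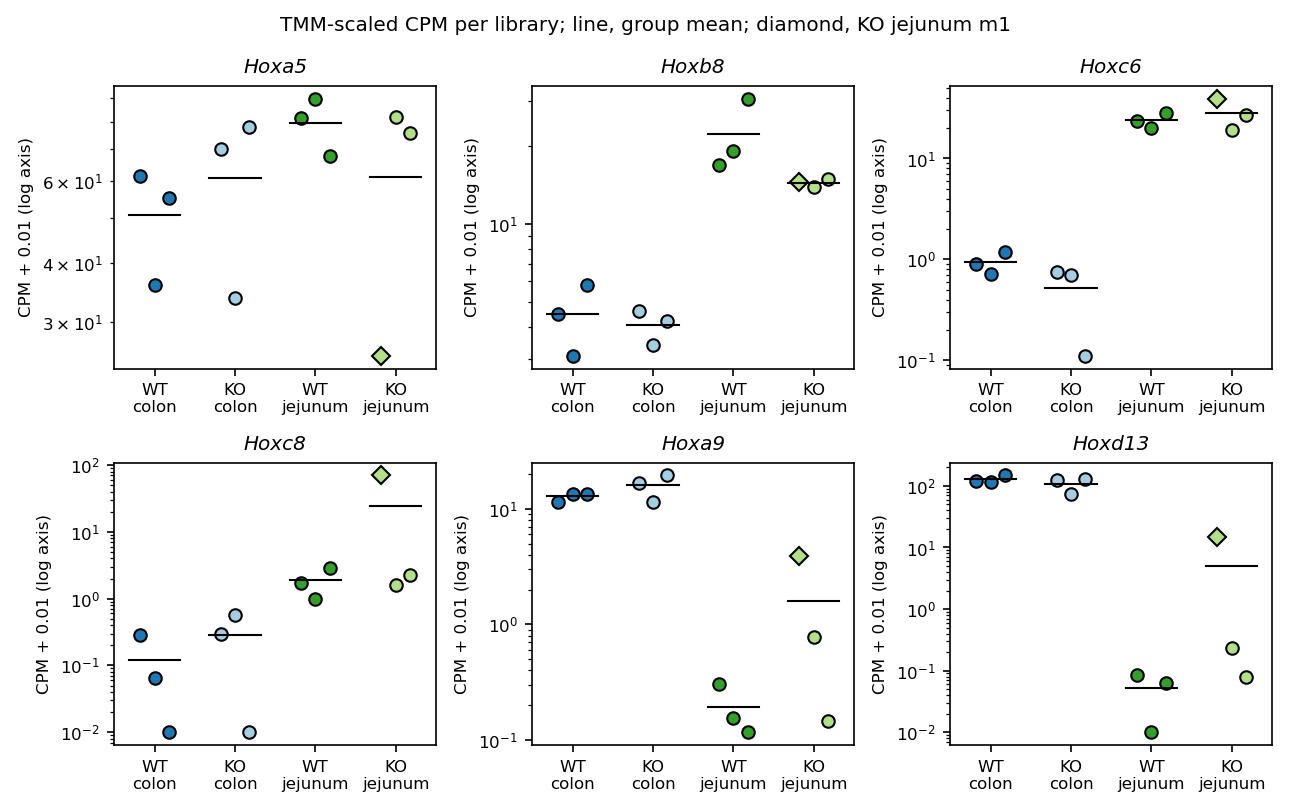
TMM-scaled CPM on a log axis for 6 Hox genes, with a point for each of the 12 bulk libraries by group and a diamond for the KO-labelled jejunum library m1. Hoxb8 and Hoxc6 are low in colon, Hoxa9 and Hoxd13 high, Hoxa5 differs less between the tissues, and m1 departs at Hoxc8 (70.3 CPM), Hoxa9 and Hoxd13 (14.5 CPM) upwards and at Hoxa5 (25.4 CPM) downwards.

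The posterior groups 9 to 13 held 16 members, of which 11 were tested and 8 called in WT. The other 5 were all of HoxC (Hoxc9 to Hoxc13) and did not pass the filter. Hoxa9, a gene of the lumbar and sacral axis, stood at 11.4, 13.5 and 13.5 CPM in WT colon, 16.8, 11.5 and 19.5 in KO-labelled colon, 0.295, 0.146 and 0.107 in WT jejunum, and 3.86, 0.769 and 0.136 in KO-labelled jejunum. Hoxa10, needed for uterine and vertebral identity, stood at 46.4, 38.3 and 55.0 CPM in WT colon, 35.7, 20.3 and 36.7 in KO-labelled colon, 0.221, 0.408 and 0.160 in WT jejunum, and 7.0, 0.384 and 0.0905 in KO-labelled jejunum. All 6 colon libraries lay above all 6 jejunum libraries for both, and the WT log2 differences were 6.15 (SE 1.01, adjusted p = 0.0166) and 7.45 (SE 1.35, 0.0249). Hoxa9 overlaps Mir196b in its exons.

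Hoxd11, which acts with Hoxa11 in kidney and forearm, stood at 24.3, 21.4 and 37.0 CPM in WT colon, 32.5, 25.5 and 23.6 in KO-labelled colon, 0.110, 0.204 and 0.0533 in WT jejunum, and 3.04, 0 and 0 in KO-labelled jejunum. Hoxd12 stood at 13.6, 12.2 and 18.3 CPM in WT colon, 18.5, 9.15 and 18.2 in KO-labelled colon, 0.0368, 0 and 0 in WT jejunum, and 1.27, 0 and 0 in KO-labelled jejunum. Outside m1 these genes had no count in KO-labelled jejunum. The WT difference of Hoxd11 was 7.78 (SE 1.61, adjusted p = 0.0432). Hoxd12 had a single count over the 3 WT jejunum libraries, a ratio of 1418 with a 95% counting interval of 254 to 56059 (adjusted p = 0.0238).

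Group 13 marks the end of the axis and is needed for hindgut, anorectal and genital development. Hoxd13 stood at 119, 118 and 148 CPM in WT colon, 123, 74.0 and 128 in KO-labelled colon, 0.0736, 0 and 0.0533 in WT jejunum, and 14.5, 0.220 and 0.0679 in KO-labelled jejunum. It had the highest level per kilobase of exon of the 39 members in WT colon, 51.7 ± 7.03 CPM per kilobase (SD, n = 3), ahead of Hoxa5 at 27 ± 7.03 and Hoxa13 at 16.9 ± 2.34. In WT jejunum the order was led by Hoxa5 at 42.4 ± 5.96, Hoxb6 at 20.9 ± 3.62 and Hoxb5 at 19.8 ± 1.82 CPM per kilobase, of which the last 2 were within their spread. The WT log2 difference of Hoxd13 was 11.50 (SE 2.03, adjusted p = 0.0233).

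Hoxa13 stood at 35.5, 42.6 and 47.0 CPM in WT colon, 40.4, 20.5 and 68.6 in KO-labelled colon, 0.368, 0.146 and 0.0533 in WT jejunum, and 7.46, 0.851 and 0.181 in KO-labelled jejunum. It changed by 7.84 (SE 1.32, adjusted p = 0.0192) in WT. Beside these posterior differences, summed interstitial cell of Cajal markers were 425 to 527 CPM in WT colon and 650 to 801 in WT jejunum, and smooth muscle markers 51257 to 74405 and 47919 to 52796. The smooth muscle sums overlapped between WT colon and WT jejunum, and the Cajal sums did not. Mural sums (7 of 7 markers found) did not overlap, at 1229 to 1720 and 4098 to 5498. The same held for lymphatic endothelial sums (6 of 6), at 346 to 488 and 81.9 to 204. It held too for neuron sums (12 of 12), at 1131 to 1785 and 741 to 959, and glia sums (9 of 9), at 390 to 471 and 277 to 318. Adipocyte sums (6 of 6) did not overlap either, at 201 to 213 and 267 to 753, nor did the mesothelial sums given above. The part of these markers in the Hox differences was not tested. The called differences of Hoxd9 and Hoxd10 were 3.88 (adjusted p = 0.0280) and 7.13 (adjusted p = 0.0489).

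There were 3 posterior members that did not pass in WT. Hoxa11 had 0 counts in all WT jejunum libraries against 8.65, 7.09 and 6.82 CPM in WT colon, at least 249-fold higher with 3 counts over the group as the floor, but its adjusted p was 0.12. It overlaps its antisense gene Hoxa11os. Hoxb13, a gene of prostate and distal gut epithelium, stood at 17.4, 56.7 and 1.09 CPM in WT colon and 13.2, 29.1 and 45.3 in KO-labelled colon, against 0.773, 0.0291 and 0.0533 in WT jejunum (adjusted p = 0.0794). Its spread between WT colon libraries ran with the summed epithelial markers (12 of 12 found), which were 1886, 3820 and 87.7 CPM in t1, t6 and t7; the part of these in its level was not tested. Hoxb9 stood at 5.59, 5.88 and 3.24 CPM in WT colon and 1.29, 0.757 and 0.959 in WT jejunum (adjusted p = 0.159). Its lowest WT colon value sat in t7 too, and epithelial-like nuclei held 72.5% of its UMIs in colon. The part of epithelial cells in its level was not tested.

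Counting groups that do not overlap, rather than calls, 27 of the 32 Hox genes tested separated WT colon from WT jejunum (12 higher and 15 lower in colon) against 22.9% of all genes, and 17 separated the KO-labelled tissues (10 and 7) against 19.6%. At an unadjusted p under 0.05, 24 Hox genes passed in WT, against 13.1% of all genes, and 18 in KO-labelled tissue, against 17.7%. By cluster, the WT calls were 3 higher in HoxA and 5 higher in HoxD, and 1 lower in HoxB and 3 lower in HoxC.

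Among KO-labelled libraries, 4 Hox genes differed between the tissues, all lower in colon: Hoxc5, Hoxc6, Hoxb7 and Hoxb8, against 1.29% of all genes, 0.460% higher and 0.833% lower. Posterior members lay in the same direction as in WT with wide errors. Hoxd13 was at 4.52 (SE 1.35, adjusted p = 0.127), Hoxa9 at 3.38 (SE 0.85, 0.0819) and Hoxd12 at 5.41 (SE 1.29, 0.0715). Without m1, 14 Hox genes passed in KO-labelled tissue, 8 higher and 6 lower in colon, against 1.70% of all genes (0.573% higher and 1.13% lower), and 3 of these were among the 4 above. The higher ones were then Hoxa9, Hoxa10, Hoxd10, Hoxa11, Hoxd11, Hoxd12, Hoxa13 and Hoxd13, with Hoxd13 at 9.57 (SE 0.57, adjusted p = 4.19e-05). The lower ones were Hoxa2, Hoxa4, Hoxc4, Hoxc5, Hoxc6 and Hoxb8.

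All groups share the estimate of the spread, so m1 also bore on the WT comparison. Without it 17 Hox genes passed in WT, 9 higher and 8 lower, with all 12 above kept, against 2.57% of all genes (0.998% higher and 1.58% lower). The added ones were Hoxa11, higher in colon, and Hoxa2, Hoxa3, Hoxa4 and Hoxb6, lower. The SE of Hoxd13 in WT, as worked back from the test, fell from 2.03 to 0.54. DESeq2, on all libraries, called 19 Hox genes in WT and 12 in KO-labelled tissue, against 5.53% and 6.83% of all genes. In KO-labelled tissue limma voom called 13, against 1.41%, and edgeR on those 2 groups alone called 0, against 0.0202%. With KO-labelled colon t4 left out beside m1 the edgeR counts were 19 and 15, against 4.92% and 3.24%. Leaving out other libraries lowered the WT count: it was 4 without WT colon t1 or WT jejunum t1 (0.365% and 0.373% of all genes), 5 without WT jejunum t6 or t7 (0.439% and 0.683%), and 6 without WT colon t6 (0.715%). The share of all genes called fell in each of these fits too, from 1.56%. An edgeR fit with a block on tags, which takes same-tag libraries as pairs, called 2 Hox genes in WT, Hoxc5 and Hoxc6, against 0.139%. No posterior member passed in that fit, in which Hoxd13 was at 11.53 (adjusted p = 0.106).

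**Figure D3:**
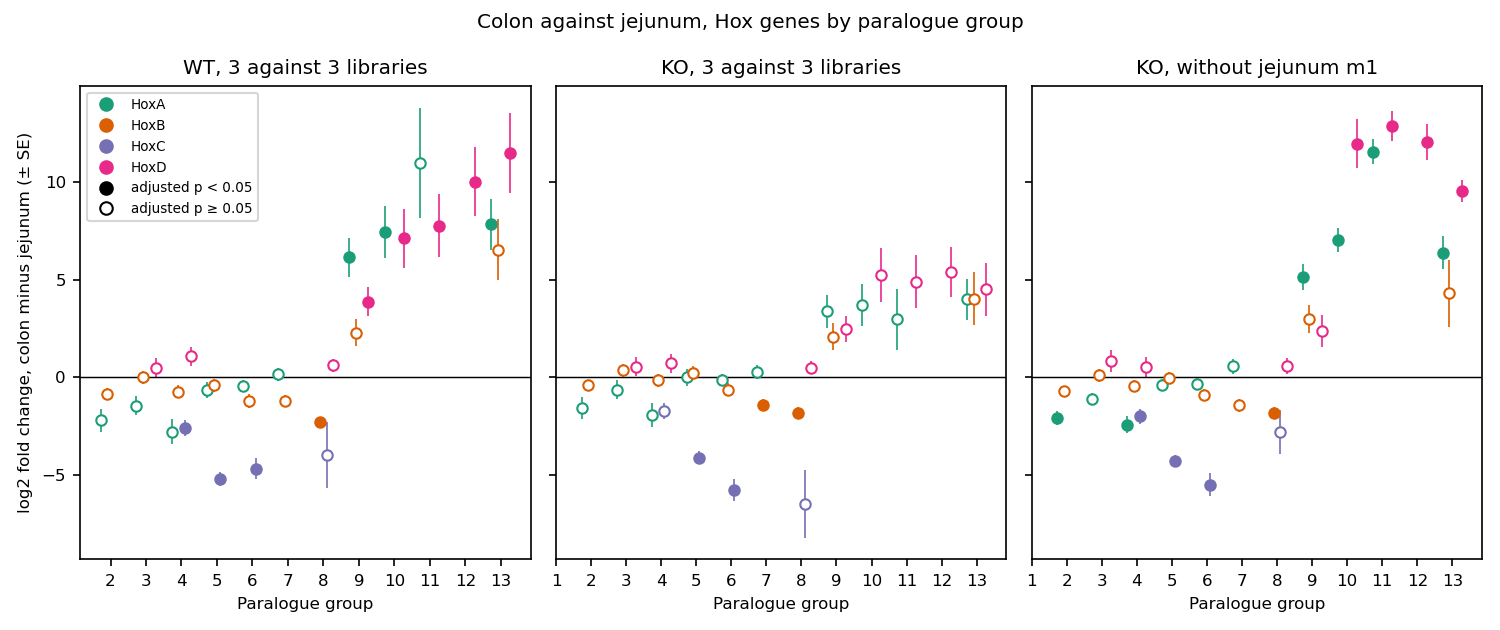
Log2 fold change of colon over jejunum for 31 of the Hox genes tested, ordered by paralogue group, with its SE as worked back from the test. Panels show WT, KO-labelled tissue, and KO-labelled tissue without jejunum library m1. Filled points passed at an adjusted p under 0.05; groups 9 to 13 lie above 0, and the HoxC genes of groups 4 to 8 lie below.

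Whether Hox levels differed by genotype was asked within each tissue. In colon 0 of 32 Hox genes passed (edgeR), against 0.388% of all genes, and none had an unadjusted p under 0.05, against 14.5% of all genes. DESeq2 and limma voom also called 0, against 4.60% and 0.455% of all genes. Among the smallest p-values were those of Hoxc6 at -0.85 (SE 0.53) and Hoxc4 at 0.41 (SE 0.40), and the smallest adjusted p was 0.499. Without m1 edgeR called 0 too, against 0.827%. Summed smooth muscle markers were 51257 to 74405 CPM in WT and 34800 to 46424 in KO-labelled colon, whose part was not tested. The median log2 difference was 0.24 over the Hox genes and 0.00 over all genes, with 23 of 32 Hox genes above 0 against 50.3% of all genes. Non-overlapping groups were found for 3 Hox genes (among them Hoxa11, higher, and Hoxa10, lower in KO-labelled colon), against 19.2% of all genes. A p that misses the threshold does not show that levels were equal.

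In jejunum 0 of 32 passed as well (edgeR), against 0.215% of all genes. At an unadjusted p under 0.05 there were 10 Hox genes, against 13.2% of all genes. The smallest p-values were those of Hoxd13 at 6.74 (SE 1.96, adjusted p = 0.188), Hoxa9 at 3.08 (adjusted p = 0.203) and Hoxa13 at 3.90 (adjusted p = 0.214). Their high values sat in m1, at 14.5, 3.86 and 7.46 CPM. Non-overlapping groups were found for 5 Hox genes (Hoxd9 higher, Hoxb2, Hoxc4, Hoxc5 and Hoxb8 lower in KO-labelled jejunum), against 22.2% of all genes. DESeq2 called 4, all higher (Hoxa9, Hoxd9, Hoxa11 and Hoxa13), against 3.85% of all genes, and limma voom 0, against 0.364%. Both were fitted only with m1 included. Without m1 edgeR called 0, against 0.120% of all genes, with 4 at an unadjusted p under 0.05, against 9.47%, and a smallest adjusted p of 0.150.

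The test of whether the tissue difference itself depended on genotype called 0 Hox genes with edgeR, against 0% of all genes, and 6 had an unadjusted p under 0.05, against 4.17%. The smallest p-values were those of Hoxd13 at -6.99 (SE 2.34), Hoxc5 at 1.09 (SE 0.42) and Hoxa13 at -3.85 (SE 1.53), each with an adjusted p of 0.941. The high jejunum values of Hoxd13 and Hoxa13 sat in m1. Without m1 edgeR called 0 Hox genes too, against 0% of all genes. DESeq2 called 1, lower in the KO-labelled comparison, against 0.182%, and limma voom 0.

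Neighbours and regulators of the clusters were read from the same fits, in which 0.694% of all genes were higher and 0.862% lower in WT colon, and 0.460% and 0.833% in KO-labelled colon. Of 8 tested genes from a list of Cdx and other homeobox genes linked to the clusters, 1 rose in WT colon: Evx2, the even-skipped gene beside Hoxd13. It stood at 21.7, 23.4 and 33.7 CPM in WT colon and 0, 0.0291 and 0 in WT jejunum (adjusted p = 0.0127). Of 24 tested gut mesenchyme transcription factors 1 rose, Pitx1, a hindlimb and hindgut homeobox gene, at 138, 91.6 and 164 CPM in WT colon against 0.368, 0.320 and 0.479 in WT jejunum, a log2 difference of 8.37 (SE 1.47, adjusted p = 0.0230). In m1 Evx2 reached 2.74 and Pitx1 18.7 CPM, above the other 5 jejunum libraries, and the noncoding RNA Hotair 0.406 CPM against 0 in all other libraries.

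Of 13 tested noncoding genes of the clusters 3 were higher in WT colon. Hoxb5os stood at 35.8, 31.3 and 42.5 CPM in WT colon and 6.00, 6.38 and 6.12 in WT jejunum, a difference of 2.57 (SE 0.29, adjusted p = 0.00331), and was called in KO-labelled tissue too, at 1.70 (adjusted p = 0.0220). The tissues did not overlap. Hoxa11os stood at 6.21, 7.33 and 6.47 CPM in WT colon and at 0 in WT jejunum (adjusted p = 0.0170), and Hottip, the noncoding RNA at the HoxA posterior end, at 1.64, 4.17 and 0.741 against 0.0736, 0 and 0 (adjusted p = 0.0360). Hoxb5os was therefore higher in colon while Hoxb5 itself was at -0.41 (adjusted p = 0.683). Use of strand in the counting was not given, and 16 of the 39 members share exon sequence with another gene, so antisense pairs may be mixed.

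Retinoic acid and Gdf11 are signals known to set Hox levels in the embryo. Of 18 tested genes of these signals 1 rose and 1 fell in each genotype. Rarb, a retinoic acid receptor, was higher in colon by 0.76 (adjusted p = 0.0360) in WT and 0.99 (0.0177) in KO-labelled tissue. Aldh1a2, the enzyme that makes retinoic acid in mesoderm, was lower by -2.11 (0.0446) and -2.21 (0.0437), and mesothelium is known to express it. Gata5 was the member of the gut mesenchyme list called in KO-labelled tissue, at -2.03 (adjusted p = 0.0216). None of 34 Polycomb and trithorax regulators passed between tissues in either genotype, nor did any of 11 Pbx, Meis, Pknox and Tgif cofactors; at an unadjusted p under 0.05 each of these lists had 1 in WT, against 13.1% of all genes, and they had 7 and 0 in KO-labelled tissue, against 17.7%. No gene of these lists passed between genotypes in either tissue, against 0.388% of all genes in colon and 0.215% in jejunum. Counts at an unadjusted p under 0.05 follow for the Cdx (8 tested), mesenchyme (24), noncoding (13), signal (18), Polycomb (34) and cofactor (11) lists. In colon they were 0, 2, 1, 4, 4 and 1, against 14.5% of all genes. In jejunum they were 2, 6, 1, 4, 2 and 2, against 13.2%.

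Hox UMIs were counted by class of colon nuclei. The share of UMIs from free RNA was not estimated, so the levels in macrophage-like and lymphocyte-like nuclei stand beside the others as a reference. After filters 2637 WT nuclei (median 1698 UMIs, unique transcript counts) and 1592 KO-labelled nuclei (median 1984) remained. They held 5910 and 4196 Hox UMIs, 714 and 687 per 1000000 UMIs (UPM), and 36 of 39 members had at least 1 UMI. Hoxb1, Hoxd1 and Hoxc12 had 0. Nuclei were grouped without using Hox genes and named by marker genes; the 2 libraries shared 11 barcodes. With 1 library per genotype there is no test, and the intervals given are exact 95% intervals for counting error only.

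Mesothelial-like nuclei, of the serosal lining, and interstitial cell of Cajal-like nuclei, the pacemakers of gut muscle, were richest in Hox transcripts over both libraries together. The mesothelial-like class (590 nuclei) held 1416 Hox UPM (1353 to 1482) and the Cajal-like class (101 nuclei) 1357 (1203 to 1526). Epithelial-like nuclei (505) followed at 1150 UPM (1083 to 1219), and smooth muscle-like nuclei (1073) held 642 (613 to 671). Blood endothelial-like nuclei stood at 807 UPM, fibroblast-like at 699 and lymphatic endothelial-like at 630. Glia-like nuclei stood at 398, macrophage-like at 365, neuron-like at 282 and lymphocyte-like at 238. Glia-like and neuron-like levels were thus near or below the macrophage-like one, and their totals are not read as expression. Epithelial nuclei are present although the muscularis had been separated.

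The posterior share, over both libraries together, set the classes apart differently. Groups 9 to 13 supplied 48.8% of Hox UMIs (42.8% to 54.8%) in Cajal-like nuclei, 44.1% (41.8% to 46.3%) in smooth muscle-like and 39.0% (33% to 45.2%) in fibroblast-like nuclei. In contrast they supplied 12.6% (11.1% to 14.1%) in mesothelial-like, 10.7% in blood endothelial-like, 7.22% (5.47% to 9.31%) in glia-like and 6.25% (4.39% to 8.59%) in neuron-like nuclei, the last 2 being derived from neural crest. Epithelial-like nuclei lay between, at 23.4% (21% to 26.0%), with 20.8% in the WT and 34.6% in the KO-labelled library. Lymphatic endothelial-like nuclei stood at 23.5% (16.7% to 31.6%). The reference classes stood at 18.7% (12.2% to 26.7%) in macrophage-like and 32.3% (16.7% to 51.4%, from 31 Hox UMIs) in lymphocyte-like nuclei. The lymphocyte-like interval thus overlapped those of the fibroblast-like, smooth muscle-like and Cajal-like classes. Glia-like and neuron-like shares rest on totals that are not read as expression. Within the glia-like class the share differed by cluster, at 14%, 3.45% and 1.90%.

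**Figure D4:**
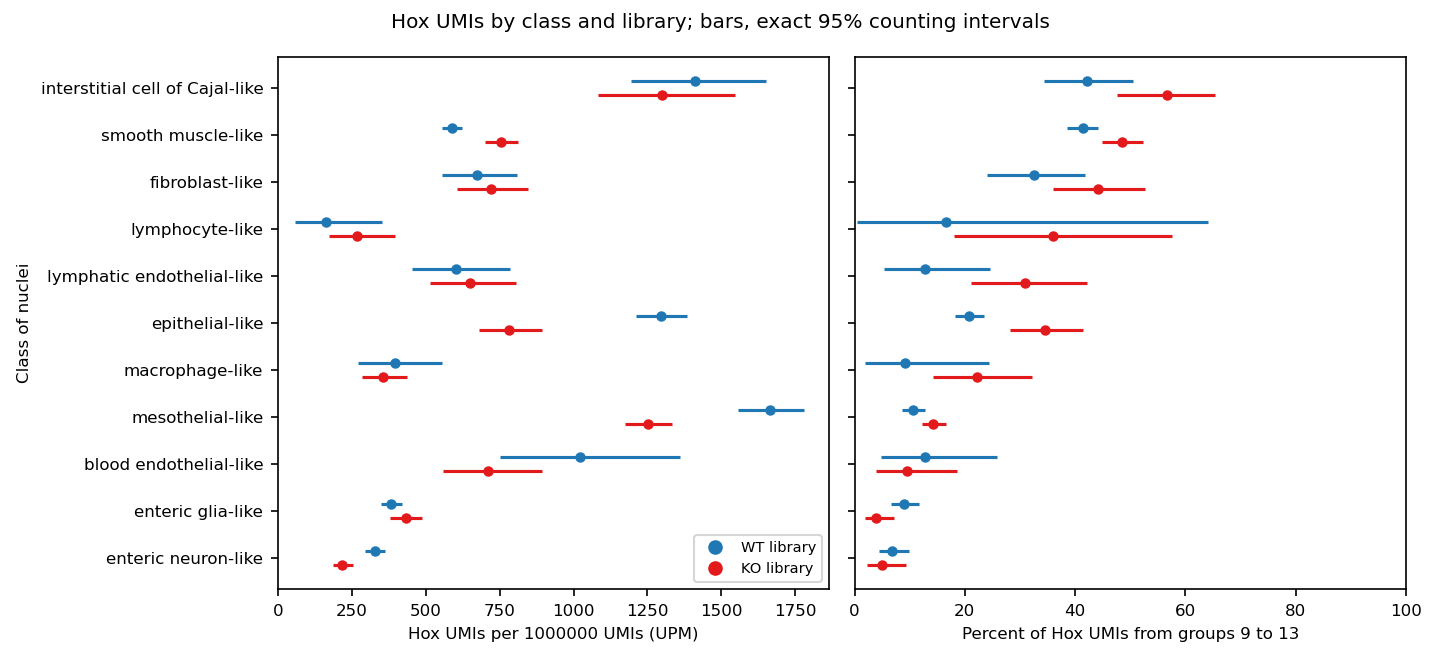
UPM (all 39 genes) and percent of Hox UMIs from groups 9 to 13 in each class of colon nuclei, for the WT and the KO-labelled library, with exact 95% counting intervals. Mesothelial-like nuclei have a high total and posterior shares of 10.6% and 14.3%, Cajal-like nuclei a high total and shares of 42.2% and 56.7%.

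A Hox UMI was seen in 83.1% of mesothelial-like, 81.2% of Cajal-like, 72.1% of epithelial-like, 71.8% of neuron-like and 63.9% of smooth muscle-like nuclei, against 20.9% (15.4% to 27.4%) of macrophage-like nuclei at a median of 1049 UMIs and 21.2% of lymphocyte-like nuclei at a median of 861. Depth matters for such shares, as neuron-like nuclei had a median of 6895 UMIs. With each nucleus thinned to 1000 UMIs and shallower nuclei left out, the shares were 71.2% in mesothelial-like, 65.8% in Cajal-like, 64.8% in epithelial-like, 44.1% in smooth muscle-like, 24.7% in neuron-like and 16.7% in macrophage-like nuclei.

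For a few members most UMIs in named classes lay in a single class. For Hoxb9, 111 of its 122 UMIs in named classes (91.0%, 84.4% to 95.4%) fell in epithelial-like nuclei, at 114 UPM against 13.3 in the next class, and they were 72.5% (64.8% to 79.4%) of all its 153 UMIs. All 6 Hoxb13 UMIs in named classes were also in epithelial-like nuclei. For Hoxc6, 133 of 165 UMIs in named classes (80.6%, 73.7% to 86.3%) lay in mesothelial-like nuclei. These were 54.1% (47.6% to 60.4%) of all 246, since 81 lay in the unnamed clusters. For Hoxc8 mesothelial-like nuclei held 62 of the 99 UMIs in named classes and 42.8% of all 145, and for Hoxc5 57 of 105 and 37.0% of all 154.

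Cajal-like nuclei had the highest levels of Hoxa9, Hoxa10, Hoxd10 and Hoxd11 among the named classes. Hoxa10 stood at 184 UPM there (130 to 252) against 81.2 (71.3 to 92.1) in smooth muscle-like nuclei, the next class, and Hoxd11 at 169 (118 to 235) against 67.4 in fibroblast-like nuclei. Hoxa9 stood at 126 (82.0 to 184) in Cajal-like and 73.5 (64.1 to 83.9) in smooth muscle-like nuclei, with intervals that just overlap. For Hoxa13 epithelial-like nuclei were highest, at 11.3 UPM (5.66 to 20.3) from 11 UMIs. Smooth muscle-like nuclei were next at 7.69 (4.87 to 11.5), so the order of these classes was not resolved. Hoxb6 led in mesothelial-like nuclei at 252 (226 to 281), close to epithelial-like nuclei at 223 (194 to 254). Glia-like and neuron-like nuclei were led by Hoxb3, at 122 and 75.1 UPM, and Hoxa3, at 79.9 and 51.4. Hoxb3 also led in macrophage-like nuclei, a reference class, at 77.1 (50.3 to 113), and in smooth muscle-like nuclei, at 95.6. Its lead was thus not particular to glia-like or neuron-like nuclei.

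**Figure D5:**
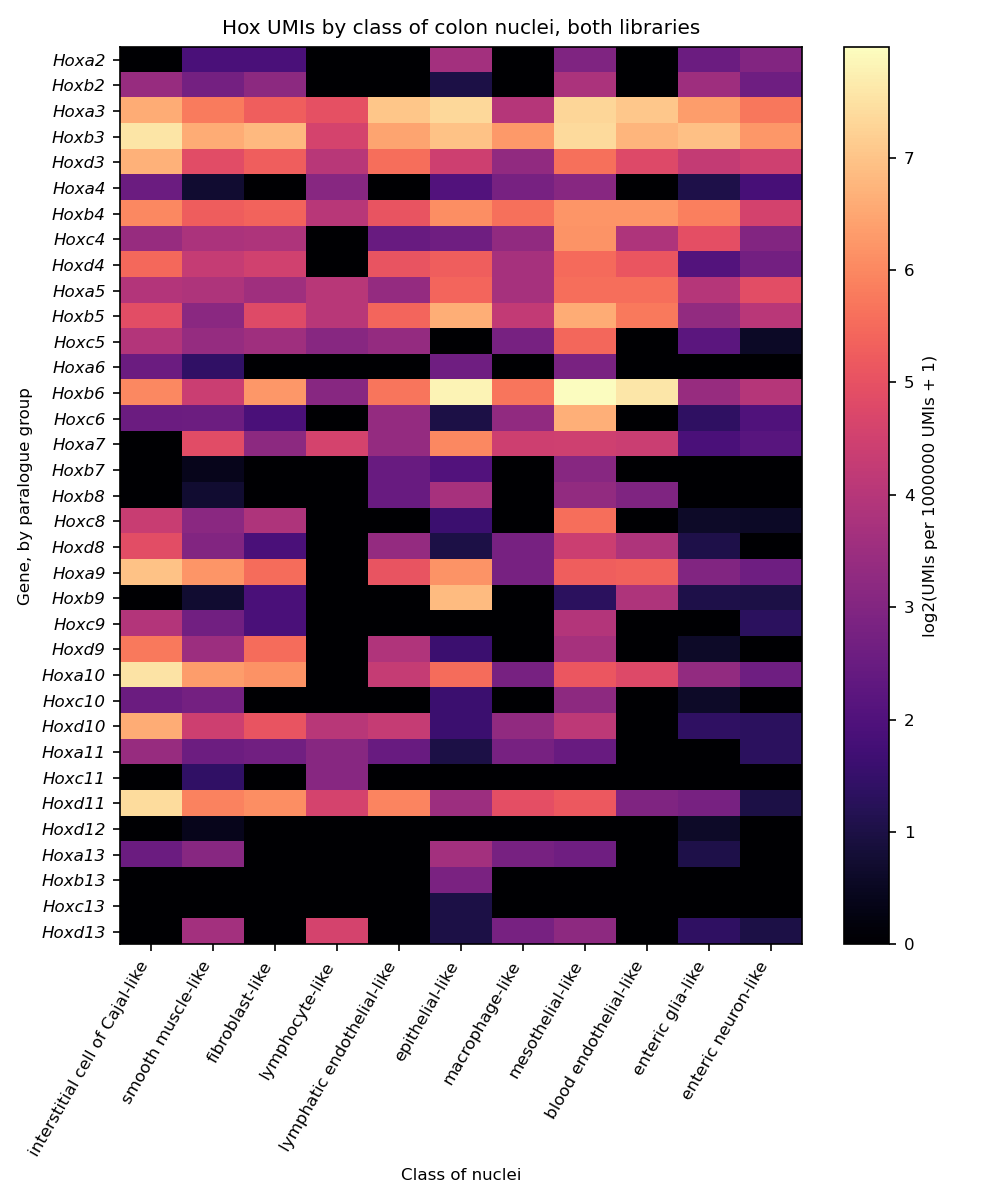
Heat map of log2(UPM + 1) for 35 of the Hox genes detected, in rows by paralogue group, across 11 named classes of colon nuclei ordered by their share from groups 9 to 13. Hoxb9 stands out in epithelial-like and Hoxc6 in mesothelial-like nuclei.

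Over both libraries Hoxb3 had the most UMIs, 1618, followed by Hoxa3 with 1149 and Hoxb6 with 1064. Hoxd13, the highest per kilobase in bulk colon, had 88, of which 34 lay in smooth muscle-like nuclei (11.4 UPM, 7.87 to 15.9). That level was not above the lymphocyte-like reference class, at 23.0 UPM (4.75 to 67.3) from 3 UMIs. Bulk libraries hold RNA of whole tissue and these libraries that of nuclei, so the orders are not on one scale. The naming rule, which refuses a name where the 10 leading genes hold more markers of another class than of its own, left 3 clusters unnamed. Cluster 1 (252 nuclei) had all 11 smooth muscle markers but the mural marker Abcc9 among its leading genes, and held 688 Hox UPM. Its posterior share was 44.8% (40.8% to 48.8%). Cluster 22 (108 nuclei) had all 9 fibroblast markers but the mural marker Ebf1 among its leading genes, and held 590. Its posterior share was 27.9% (21.8% to 34.6%), below the 39.0% (33% to 45.2%) of the fibroblast-like class, with intervals that just overlap. Cluster 11 (85 nuclei with a median of 10719 UMIs) scored under the minimum for every marker list and held 818 Hox UPM, with a posterior share of 21.1%.

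Between the nuclei libraries, Hox UPM in KO-labelled over WT nuclei gave a ratio of 1.28 (1.17 to 1.41) in smooth muscle-like, 0.752 (0.686 to 0.824) in mesothelial-like, 0.603 (0.517 to 0.700) in epithelial-like and 0.664 (0.553 to 0.795) in neuron-like nuclei. In Cajal-like nuclei it was 0.921 (0.722 to 1.17) and in glia-like 1.13 (0.966 to 1.32). The epithelial ratio was 0.498 (0.412 to 0.597) for groups 1 to 8 and 1.0 (0.756 to 1.32) for groups 9 to 13, and the smooth muscle ratio 1.51 (1.31 to 1.73) for groups 9 to 13. These classes are not made up alike in both libraries: smooth muscle-like cluster 6 (37.3% posterior) had 282 WT and 10 KO-labelled nuclei, and cluster 14 (1161 Hox UPM) 40 and 76. Mesothelial-like cluster 8 (1734 Hox UPM) had 228 WT and 79 KO-labelled nuclei, and cluster 10 (1204) 109 and 174. Genotype and library cannot be told apart here.

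Open chromatin regions were listed per library, so their numbers reflect each list's own calling. Within 5000 bases of the clusters there were 17 regions in WT and 12 in KO-labelled nuclei, and 6 of the WT regions overlapped a KO-labelled region. WT regions covered annotated starts of Hoxa4, Hoxa5, Hoxa7, Hoxa10, Hoxb13, Hoxc5, Hoxd13 and Hoxd1, and KO-labelled regions those of Hoxa7, Hoxb4, Hoxd3, Hoxd4 and Hoxd1 among others. The Hoxd13 window printed above lay wholly in the WT region chr2:74667780-74668981 (98 counts) and in no KO-labelled region. The Hoxb4 window lay wholly in the KO-labelled region chr11:96317786-96319011 (132 counts) and in no WT region. No listed region covered the Hoxb8 window. The Hoxa7 start was covered in both lists, with 204 counts in the WT and 136 in the KO-labelled library. Such totals include barcodes outside the classes of nuclei. They are not scaled to the size of the libraries (3476 and 2164 barcodes), so they do not compare the genotypes. The Hoxd1 start was covered in both as well, although Hoxd1 had 0 UMIs.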

How the data were processed

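Bulk RNA-seq gave read counts per gene. Per the submitters' processing notes these used STAR 2.0.4b and featureCounts 1.4.5, with GRCm38 named. The deposited counts were taken as they stand after 276 identical repeated entries were dropped. Library totals were 24254905 to 44315104 counts. edgeR 4.0.16 (R 4.3.3) fitted 4 group means to all 12 libraries with TMM scaling, a low-count filter and robust quasi-likelihood, with p adjusted over 20886 genes. The fit was tested on simulated data. CPM are means ± SD.

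The deposited nuclei counts come from Cell Ranger (mm10), per the submitters' processing notes; the gene values were all even and were halved to UMIs. Nuclei needed 500 UMIs, 300 genes and at most 5% mitochondrial UMIs, and 2 predicted doublets per library (0.0758% and 0.125%) were removed, so doublets may remain. Clustering (scanpy 1.11.5, resolution 1) left out Hox genes. Classes needed at least 3 markers.

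The members and lists were chosen with earlier results of these data known. Values in every library were planned for the member with the highest mean in each paralogue group, and for each genotype comparison the 3 smallest p; those of Hoxc4, Hoxc5, Hoxc6, Hoxc8, Hoxa11, Hoxa13, Hoxb9 and Hoxb13 were added after their values were seen. List members were named if past the threshold. The values of 1 Hox gene are not reported here, although it is part of the counts and sums over all members. Alternatives were DESeq2 1.42.0, limma voom (limma 3.58.1), other scalings, no filter, 2 groups only, a block on tags, and each library left out.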

Additional observations from a re-analysis of the deposited data

How the results depend on the processing

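The number of Hox genes called between WT colon and jejunum (12) was 6 of 39 with no filter, against 1.04% of 31526 genes. It was 19 with DESeq2, and 4 to 17 with 1 library left out. That between KO-labelled tissues (4) was 12 with DESeq2, 13 with limma voom, 0 with the 2 groups only, and 2 to 14 with 1 library left out (2 without KO colon t6 or KO jejunum t4, against 0.186% and 0.283% of all genes, 14 without KO jejunum m1). Without KO jejunum m1 and KO colon t4 together, an alternative chosen after seeing the data, the counts were 19 and 15. DESeq2 called 4 in jejunum by genotype and 1 for the tissue by genotype difference. Same-tag colon and jejunum libraries correlated at 0.10, -0.01 and 0.06 in WT and at -0.16 and -0.10 in KO. Not every library correlated best with its own tag, and the tags were not taken as pairs. Such weak correlations over few libraries cannot exclude that same-tag libraries share an animal. With the replicate block 2 Hox genes were called in WT and 1 in KO, against 0.139% and 0.0144% of all genes. No paired analysis was possible for the genotype comparisons because those groups share fewer than 2 tags. The uncalled tissue difference of Hoxa5 in KO-labelled mice (-0.01) turned positive with total counts (0.044), limma voom (0.049), the replicate block (0.144), and without KO colon t4 (0.278), KO jejunum t1 (0.235) or KO jejunum t4 (0.145), and that of Hoxb4 (-0.15) without KO colon t4 (0.030). With 1 library left out they ranged from -0.39 to 0.278 for Hoxa5 and from -0.45 to 0.030 for Hoxb4. Over all alternatives, single-gene values kept direction and call 593 times, gained the call 32 times and lost it 57 times. Total-count scaling moved the median of all genes by 0.109 between KO-labelled tissues. At the coarser resolution of 0.5, blood endothelial-like nuclei held 966 Hox UPM and smooth muscle-like 534. Thinned shares of nuclei with a Hox UMI were 64.4% in blood endothelial-like, 31.8% in glia-like, 24.7% in neuron-like, 64.8% in epithelial-like, 65.8% in Cajal-like, 42.9% in lymphatic endothelial-like, 71.2% in mesothelial-like and 44.1% in smooth muscle-like nuclei. The lymphocyte-like class did not form with at least 1000 UMIs or with doublets kept. Low counts limit the fold of posterior genes in jejunum: Hoxd12 had a single count there in WT.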
